A study of Mus musculus with 2 samples.

Results

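Heat shock proteins are chaperones, and their transcripts were followed here in Lin-c-kit+Sca1+ cells sorted from mouse bone marrow, which hold the blood-forming stem cells and the progenitors closest to them. The genes were a given list of 10, taken with every probe set that names them: 6 of cytosolic proteins (Hspa8, Hspa4, Hsp90aa1, Hsp90ab1, Hsph1 and Dnaja1), 1 of the endoplasmic reticulum (Hspa5) and 3 of mitochondria (Hspa9, Hspd1 and Hspe1). Of these 10 genes, 9 were measured, by 15 probe sets, among the 8251 genes named by the array's annotation. No probe set of Hsp90ab1 was analysed here. None of the 15 probe sets names a second gene.

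Of this sorted population 2 samples, called sample 1 and sample 2, were each hybridised to 1 Affymetrix mouse array. Per the labels, the total RNA went through 2 rounds of amplification. The labels name no genotype, strain, age, treatment or second group, and nothing in them tells whether separate animals were used, so the spread between samples may be technical. With 1 group of 2 samples no gene can be tested, and every difference below describes these 2 arrays.

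Chaperones of the Hsp70 family bind exposed hydrophobic stretches of unfolded proteins in a cycle of ATP binding and hydrolysis. J-domain proteins speed the hydrolysis and nucleotide exchange factors reset the cycle. Hsp90 takes over partly folded clients such as kinases and steroid receptors, and the barrel of Hsp60 with its lid Hsp10 folds proteins inside mitochondria. Several of these genes are switched on by heat shock factor through inverted repeats of the letters GAA, and those of the endoplasmic reticulum through a separate stress element.

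These control elements are shown first, and the values of the genes in the 2 samples follow below. Promoter windows from RefSeq (build GRCm38.p6) run from 250 bases before a transcription start to 50 bases after it. They matched 6 of the 10 genes, with 10 windows in all. The heat shock pair was searched as TTCNNGAA and as GAANNTTC, on both strands. The stress element of the endoplasmic reticulum was searched as CCAAT and CCACG with 9 bases of any kind between them, also on both strands. A pair of either kind was found in 15.1% of all 32817 windows, and the stress element in 0.119%. Overlapping pairs make a run of 3 units (TTC, GAA and TTC with 2 bases between units, or its reverse complement), found in 0.603% of windows. Capitals mark the matches, and each stretch ends upstream of the start.
Hspe1, chr1:55088034-55088101, plus strand: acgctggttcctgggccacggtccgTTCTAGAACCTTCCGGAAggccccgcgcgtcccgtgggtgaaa
Hsph1, chr5:149636337-149636394, minus strand: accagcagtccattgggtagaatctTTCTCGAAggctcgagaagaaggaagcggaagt
Dnaja1, chr4:40722319-40722376, plus strand: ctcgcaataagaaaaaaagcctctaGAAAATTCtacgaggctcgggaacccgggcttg
Hspa5, chr2:34772000-34772068, plus strand: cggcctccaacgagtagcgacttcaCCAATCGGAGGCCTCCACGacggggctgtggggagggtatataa

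The Hspe1 stretch lies between Hspe1 and Hspd1, which point away from each other. Of the 2 annotated Hspd1 starts, one lies 216 bases from the Hspe1 start with this stretch between them, and the windows of these starts share 285 bases. Read on the other strand, the same capitals begin 144 bases upstream of that Hspd1 start, against 89 bases upstream of the Hspe1 start. The other Hspd1 start lies past the Hspe1 start, inside the Hspe1 gene, and its window held no match. The Hspa5 element begins 65 bases upstream of its start. The Dnaja1 pair begins 124 bases upstream of the first of 3 annotated starts, and the windows of the other 2 starts held no match. The Hsph1 pair begins 54 and 33 bases upstream of its 2 starts, and a run of 3 units follows past the start. The Hspa4 window held none of these letters. A match describes the sequence and does not show that a factor binds there.

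Both samples had signals above the control level for all 9 measured genes, as they did for 57.0% of all 8251 genes. The control level of a sample was the 90th percentile of 15 probe sets for bacterial genes, 12.1 in sample 1 and 8.91 in sample 2. Signals are quantile-normalised and linear, and signals under 20 were set to 20 before log2 (the floor). Differences are log2 of sample 1 minus log2 of sample 2, so a positive one means higher in sample 1. Where a gene has several probe sets, the one with the strongest signals over both samples stands for it. Signals of different probe sets are not on a shared scale, so levels are not compared between genes.

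Of the 9 genes, 3 were 2-fold or more apart (33.3%), against 20.7% of the 4707 genes above the control level. All 3, Hspa9, Hsph1 and Hspe1, were higher in sample 1, as were 11.0% of the 4707 genes. None was 2-fold higher in sample 2, against 9.62% of all. Each of the 9 had both signals over the floor. Of the 3330 genes of which this held, 22.6% were 2-fold or more apart, 11.9% higher in sample 1 and 10.7% in sample 2. In all, 7 of the 9 had a positive difference and 2 a negative one, against 2219 and 2039 of the 4707 genes. Of the 7, Hspa4 and Dnaja1, at 0.05 and 0.02, turned negative with median-centring. The median difference of the 9 was 0.72, or 1.65-fold, against a median of 0 over the 4707 genes. By compartment the median was 0.05 for the 5 cytosolic genes and 1.66 for the 3 mitochondrial ones, and Hspa5 alone stood for the endoplasmic reticulum at 0.95. Members of the cytosolic set spanned -0.48 to 1.86 and those of the mitochondrial set -0.40 to 2.35, so the compartments overlapped. With 5, 1 and 3 genes the compartments were not tested against each other. In a sorted population, more cells that express a gene and more RNA per cell cannot be told apart.

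**Figure D1:**
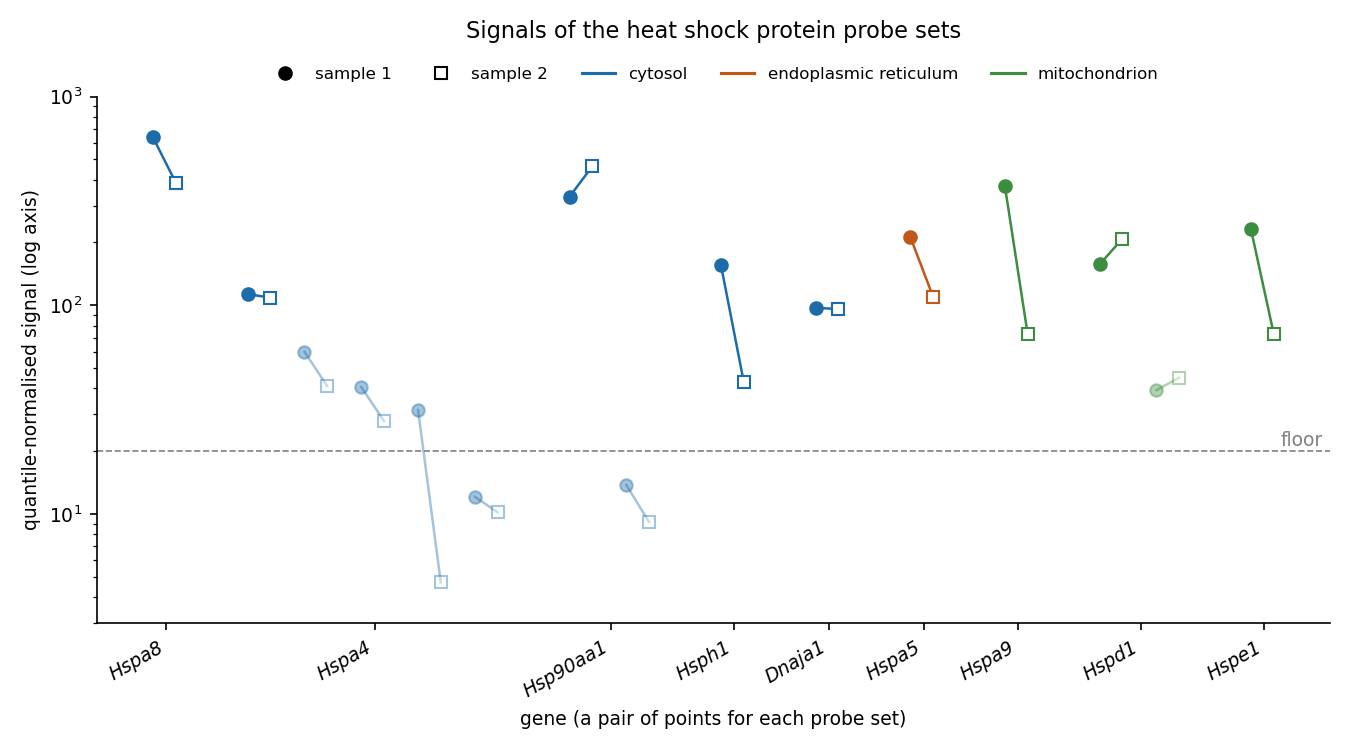
Quantile-normalised signal on a log axis for each of the 15 probe sets, as a pair of points (filled circle, sample 1; open square, sample 2) grouped by gene and coloured by compartment. Strong colours mark the probe set that stands for a gene, and the dashed line is the floor of 20. The largest gaps between the strong points of a pair belong to Hspa9 (372 and 73.0), Hsph1 (156 and 43.1) and Hspe1 (231 and 73.1).

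Among the mitochondrial chaperones the genes parted. Hspa9 encodes the mitochondrial Hsp70, the motor that pulls precursor proteins into the matrix. Sample 1 gave a signal of 372 and sample 2 one of 73.0 (log2 mean 7.36 ± 1.66, SD, n = 2), 5.09-fold higher in sample 1. Of the 3330 genes with both signals over the floor, 25 (0.751%) were at least as far apart in that direction. Hspe1 encodes Hsp10, the lid of the folding barrel. It had signals of 231 and 73.1 in samples 1 and 2 (7.02 ± 1.17, SD, n = 2), 3.16-fold higher in sample 1, and 3.60% of the 3330 genes were as far apart that way.

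Hspd1 encodes Hsp60, the barrel that this lid closes. Sample 1 gave a signal of 157 and sample 2 one of 208 (7.50 ± 0.28, SD, n = 2). The difference was -0.40, which 28.8% of the 3330 genes reached in that direction. The second probe set of Hspd1, with signals of 39.2 and 45.0, had a difference of -0.20, in the same direction. Thus Hspe1, at 1.66, and Hspd1, at -0.40, had opposite signs. The Hspd1 SD of 0.28 was under the replicate SD of 0.58 over all probe sets above the control level. The element shown above lies between the Hspe1 start and 1 of the Hspd1 starts. The gene table lists 23 pseudogenes named after Hspd1, 7 after Hspe1 and 1 each after Hspa9 and Dnaja1. How much signal such near copies add was not tested.

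The endoplasmic reticulum chaperone gene Hspa5 encodes BiP, the Hsp70 of that compartment which also binds the sensors of its stress response. Its signals were 213 in sample 1 and 110.2 in sample 2 (7.26 ± 0.68, SD, n = 2), 1.94-fold higher in sample 1. This was just under the 2-fold limit, and with the deposited scaling the difference was 1.01, just over it. Of the 3330 genes, 13.0% were as far apart in that direction.

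The cytosolic genes ranged from equal signals to one of the larger differences. Hsph1 encodes Hsp110, which acts as a nucleotide exchange factor for Hsp70 and holds unfolded proteins. It had signals of 156 and 43.1 in samples 1 and 2 (6.36 ± 1.32, SD, n = 2), 3.63-fold higher in sample 1, and 2.49% of the 3330 genes were as far apart that way. Hspa4, of the same exchange factor family, had nearly equal signals of 113 and 109 by the probe set that stands for it (6.79 ± 0.04, SD, n = 2).

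The other 4 probe sets of Hspa4 were weaker and gave signals of 59.9 and 41.0, 40.6 and 27.9, 31.5 and 4.70, and 12.1 and 10.2. In each pair sample 1 was the higher. The first and second of these had differences of 0.55 and 0.54. For the pair of 31.5 and 4.70, sample 2 was at the floor, and for the last pair both samples were. The mean over all 5 probe sets gave Hspa4 a difference of 0.36, in place of 0.05.

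Hspa8 encodes the constitutive Hsp70 of the cytosol. Its single probe set gave 637 and 387 in samples 1 and 2 (8.96 ± 0.51, SD, n = 2), a difference of 0.72 that 18.8% of the 3330 genes reached. Dnaja1, a J-domain partner of Hspa8, had nearly equal signals of 97.3 and 96.0 (6.59 ± 0.01, SD, n = 2). Hsp90aa1, the stress-inducible form of cytosolic Hsp90, went the other way, with 331 in sample 1 and 463 in sample 2 (8.61 ± 0.34, SD, n = 2). Its difference was -0.48, which 25.4% of the 3330 genes reached in that direction. Its second probe set was at the floor in both samples (13.8 and 9.15). The replicate SD, a root mean square over all 6118 probe sets above the control level, was 0.58. Probe sets at the floor in both samples were included and add nothing to it, which lowers it. Of the 9 genes, Hspa9, Hsph1, Hspe1 and Hspa5 had an SD above 0.58. The share of all genes above it was not counted, so this does not set the heat shock genes apart.

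**Figure D2:**
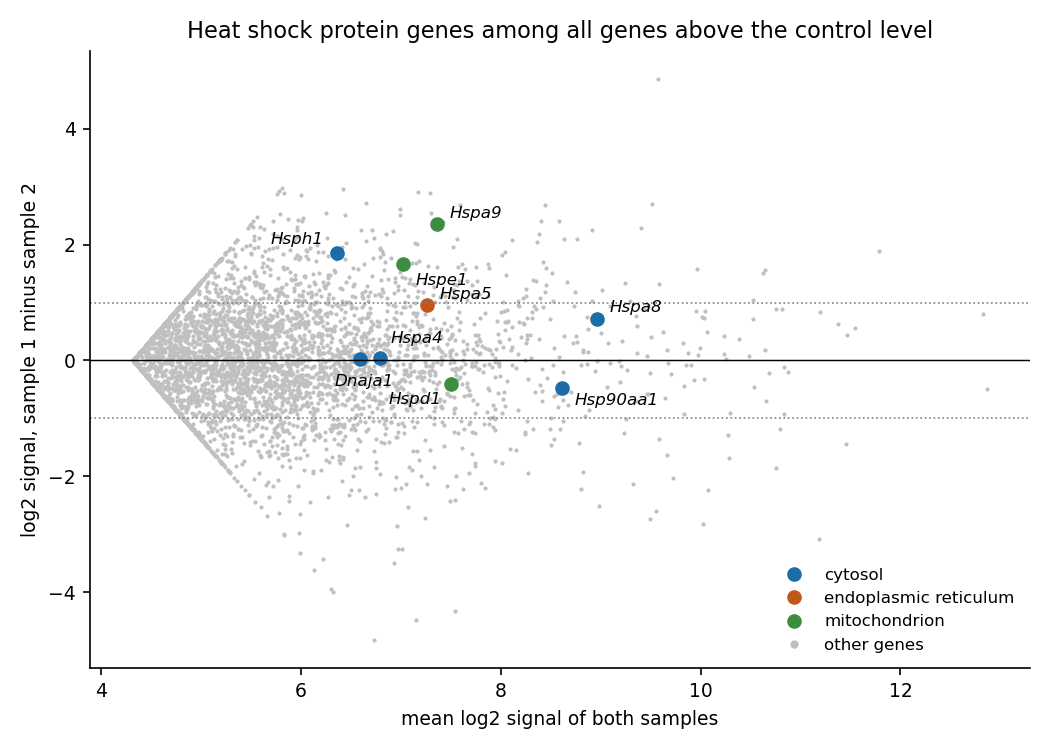
Each grey point is 1 of the 4707 genes above the control level, by its mean log2 signal (horizontal) and its log2 signal in sample 1 minus that in sample 2 (vertical). Coloured points are the 9 heat shock genes by compartment, and dotted lines mark 2-fold. Hspa9, Hsph1 and Hspe1 lie above the upper dotted line at 2.35, 1.86 and 1.66, and Hspa5 just under it at 0.95.

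The wider chaperone network was followed with 7 lists holding 115 genes, 15 of them on more than 1 list. Of these, 91 were measured. Signals were above the control level in sample 1 and in sample 2 for 65 (71.4%), against 57.0% of all 8251 genes. Of the 65, 11 (16.9%) were 2-fold or more higher in sample 1 and 5 (7.69%) in sample 2, against 11.0% and 9.62% of the 4707 genes. For the direction counts of each list below, 2219 of the 4707 genes were higher in sample 1 and 2039 in sample 2. Of the 65, 39 were higher in sample 1 and 21 in sample 2, with a median difference of 0.22. Where both signals were over the floor, which left 45 genes, 6 were 2-fold higher in sample 1 and 5 in sample 2, against 11.9% and 10.7% of the 3330 genes.

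Folding and stress genes of the endoplasmic reticulum included several that went the way of Hspa5. Of 26 measured, 21 (80.8%) were above the control level, against 57.0% of all 8251 genes. Among these 21, 14 were higher in sample 1 and 5 in sample 2, with a median of 0.28. Of the 21, 6 (28.6%) were 2-fold or more higher in sample 1 and 1 (4.76%) in sample 2, against 11.0% and 9.62% of the 4707 genes. Hsp90b1, the Hsp90 of this compartment (Grp94), had 380.4 in sample 1 and 65.5 in sample 2, 5.81-fold higher in sample 1. The cyclophilin gene Ppib had 264 and 80.5, and Ero1b, which reoxidises protein disulfide isomerases, had 96.1 and 25.9.

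The other 3 of the 6, named after their values were seen, were at the floor in sample 2. Manf was at least 3.60-fold, Creld2 at least 2.38-fold and Pdia6 at least 2.08-fold higher in sample 1. The other 2 probe sets of Pdia6 went in different directions, with 25.5 and 17.9, and 15.1 and 39.9. The disulfide isomerase gene P4hb went the other way with 34.8 and 97.2, but its second probe set had nearly equal signals of 23.8 and 22.4. Atf4, a transcription factor of the stress response, had 169 in sample 1 and 255 in sample 2, a difference of -0.59.

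The mitochondrial import and folding list did not share the direction of Hspa9 and Hspe1 as a whole. Of 13 genes above the control level, 5 were higher in sample 1 and 8 in sample 2, with a median of -0.11. The presequence translocase genes Timm23 (248 and 77.0) and Timm17a (129 and 46.1) were 3.22-fold and 2.79-fold higher in sample 1. Tomm70a, a receptor of the outer membrane for precursors brought by Hsp70 and Hsp90, had 198 and 100.1, and its second probe set 48.0 and 22.2. Timm17b had 113 and 120. Dnaja3, the J-domain partner of Hspa9, went the other way with 58.0 in sample 1 and 129 in sample 2, 2.23-fold higher in sample 2.

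Of 16 J-domain genes above the control level, 10 were higher in sample 1, 3 in sample 2 and 3 were at the floor in both, with a median of 0.16. Dnajc8 had 1422 and 786 in samples 1 and 2 (256 and 206 by its other probe set) and Dnajb6 had 183 and 95.8 (34.3 and 22.4 by its other probe set). Dnajc2, a chaperone of the ribosome, had 116 and 48.9, but 32.3 and 48.9 by its other probe set. Dnajc1, of the endoplasmic reticulum, had 27.5 and 73.3, and its second probe set was at the floor in both samples.

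Most Hsp90 co-chaperone genes were under 2-fold apart, as were most of the 4707 genes above the control level. Of 11 above the control level, 8 were higher in sample 1 and 3 in sample 2, with a median of 0.22. In this list 1 gene (9.09%) was 2-fold or more apart, against 20.7% of the 4707 genes. That gene, Fkbp5, named after its values were seen, was at least 3.30-fold higher in sample 1. The immunophilin genes Fkbp4 (1099 and 943), Ppid (336 and 212) and Fkbp8 (88.3 and 70.5) were all under 2-fold apart. Of 9 measured nucleotide exchange factor genes, 5 (55.6%) were above the control level, against 57.0% of all 8251 genes. Of the 5, 2 were higher in sample 1 and 3 in sample 2. By 2-fold or more, 1 (20%) was higher in sample 1 and 1 (20%) in sample 2, against 11.0% and 9.62% of the 4707 genes. Bag1, named after its values were seen, had 47.4 in sample 1 and was at the floor in sample 2, at least 2.37-fold higher in sample 1. Bag6 had 88.5 and 187, and its other probe sets above the control level had 30.5 and 58.8, and 35.0 and 34.5. Bag2 had 148 and 90.7 by one probe set and 43.3 and 43.5 by another. Hspbp1 had 80.1 and 82.5.

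Hspa1a, an inducible cytosolic Hsp70, had 23.9 in sample 1 and 106 in sample 2, 4.44-fold higher in sample 2. Hspa1b, its near-identical neighbour, was at the floor in both samples (19.4 and 16.5), and the array may not separate the copies. Of 9 measured small heat shock protein and heat shock factor genes, 3 were above the control level (33.3%), against 57.0% of all 8251 genes. These 3, Hspb2 (31.0 and 10.9), Hspb8 (25.9 and 16.9) and Cryab (20.8 and 13.1), had a median difference of 0.37, with Cryab at 0.05. The floor held all 3 in sample 2, and the second probe set of each was not above the control level in both samples.

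**Figure D3:**
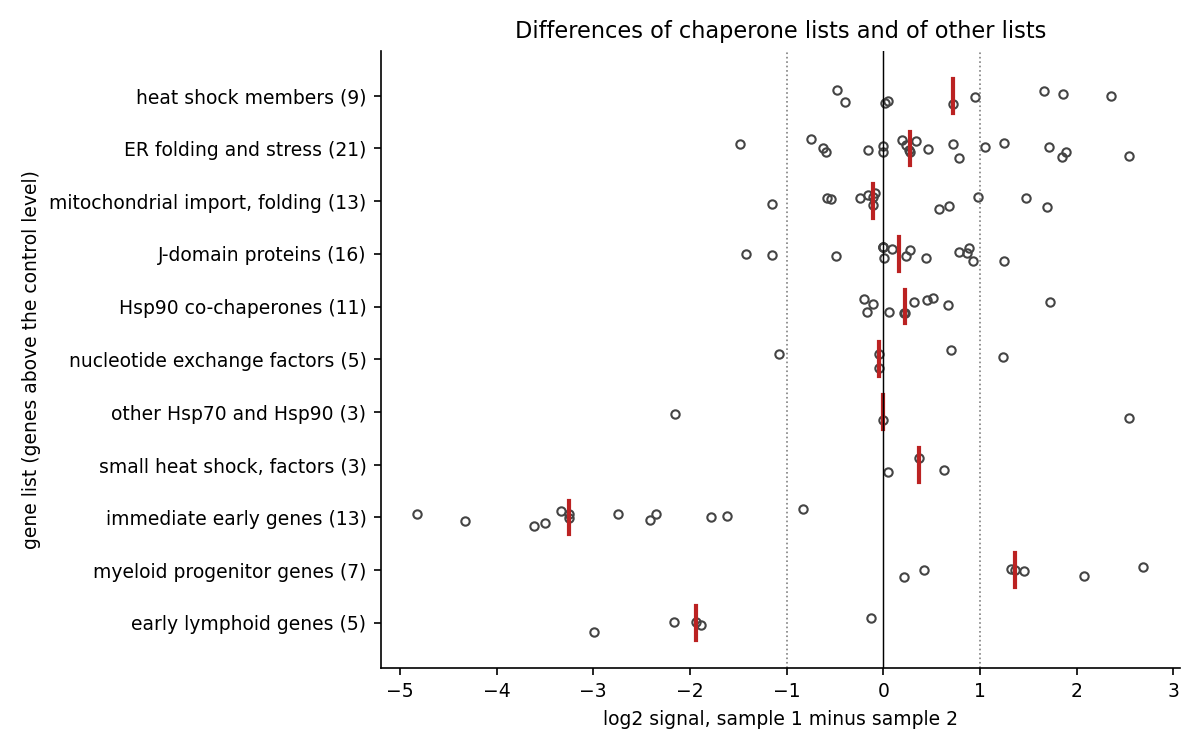
Each open circle is 1 gene above the control level, by its log2 signal in sample 1 minus that in sample 2, in 8 chaperone lists and 3 other lists (number of genes in parentheses). Red bars are medians, dotted lines mark 2-fold and the vertical scatter within a row has no meaning. The heat shock genes have a median of 0.72, the endoplasmic reticulum list 0.28 and the immediate early genes -3.25.

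Other gene groups also differed between these samples. Of 16 immediate early genes, which are transcribed within minutes of a stimulus, 13 were above the control level and all 13 were higher in sample 2, with a median of -3.25. Fos had 41.7 and 839 in samples 1 and 2, Egr1 36.4 and 410.4 and Dusp1 42.0 and 399, and Jun was at least 10.1-fold higher in sample 2. All 7 measured myeloid progenitor genes were higher in sample 1 (median 1.36, summed signal 2897 and 849). All 5 early lymphoid genes above the control level were higher in sample 2 (median -1.94, summed signal 252 and 988 over 8 measured genes). Stem and progenitor genes were above the control level in 9 of 10 cases, 3 of them higher in sample 1 and 6 in sample 2 (median -0.38). Kit was at 25.8 in sample 1 and at the floor in sample 2 (19.4). T cell genes were above the control level in 0 of 5 cases. For other lineages, B cell genes were above it in 3 of 4 cases (median -0.02) and mature neutrophil genes in 5 of 7 (median -0.61). Erythroid genes were above it in 4 of 6 cases (median 0.94, from -4.48 to 2.68). All these counts stand against 57.0% of all 8251 genes. The 3 B cell genes had signals in samples 1 and 2 of 32.8 and 31.2 (Cd79a), 38.1 and 38.5 (Cd79b) and 28.2 and 43.5 (Ms4a1). Among the neutrophil genes, Ngp had 60.0 and 275 in samples 1 and 2 and Camp 91.8 and 269. The alpha globin gene Hba-a1 had 30.1 and 670.3, and the erythroid gene Car1 488 and 75.9. Ly6a, which encodes Sca-1, was not analysed here. The part of these shifts in the chaperone differences was not tested.

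Control probe sets along 2 transcripts differed between the samples as well. For Gapdh the 5′ probe set had 193 and 78.9 in samples 1 and 2, a difference of 1.29, and the 3′ probe set had 2172 and 1498, a difference of 0.54. For Actb the 5′ probe set had 194 and 175 (0.15) and the 3′ probe set 2012 and 3875 (-0.95). For both transcripts the difference was thus more positive at the 5′ than at the 3′ end. Where the chaperone probe sets lie on their transcripts was not analysed here, and its part in their differences was not tested.

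**Figure D4:**
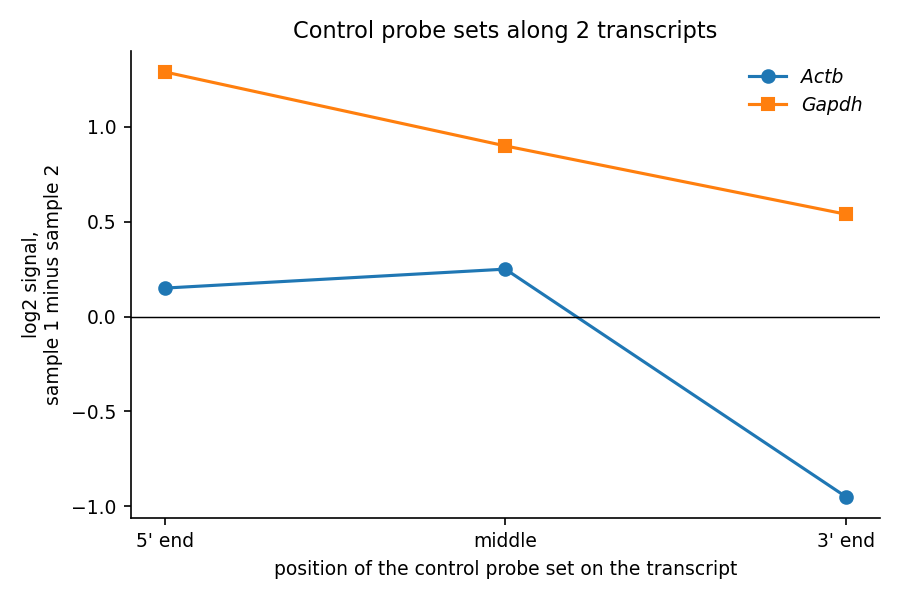
The log2 signal in sample 1 minus that in sample 2 for control probe sets at the 5′ end, middle and 3′ end of the Gapdh (squares) and Actb (circles) transcripts. Gapdh runs through 1.29, 0.90 and 0.54, and Actb through 0.15, 0.25 and -0.95.

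The differences of the larger movers held their direction under the alternatives that could change them. Those alternatives were the deposited scaling, median-centring and the offset in place of the floor. The lower floor, averaging of probe sets and adding probe sets that name several genes could not change Hspa9, Hsph1, Hspe1 or Hspa5. Each of these genes has a single probe set with both signals over the floor, and no added probe set names it. Hspa9 lay between 1.94 and 2.41, Hsph1 between 1.33 and 1.96, Hspe1 between 1.32 and 1.73 and Hspa5 between 0.79 and 1.01. Hsp90aa1 (-0.56 to -0.24) and Hspd1 (-0.47 to -0.30) stayed negative under the alternatives run, of which the lower floor and the added probe sets could not change them. Hspa4 and Dnaja1, whose signals were nearly equal, took either sign.

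**Figure D5:**
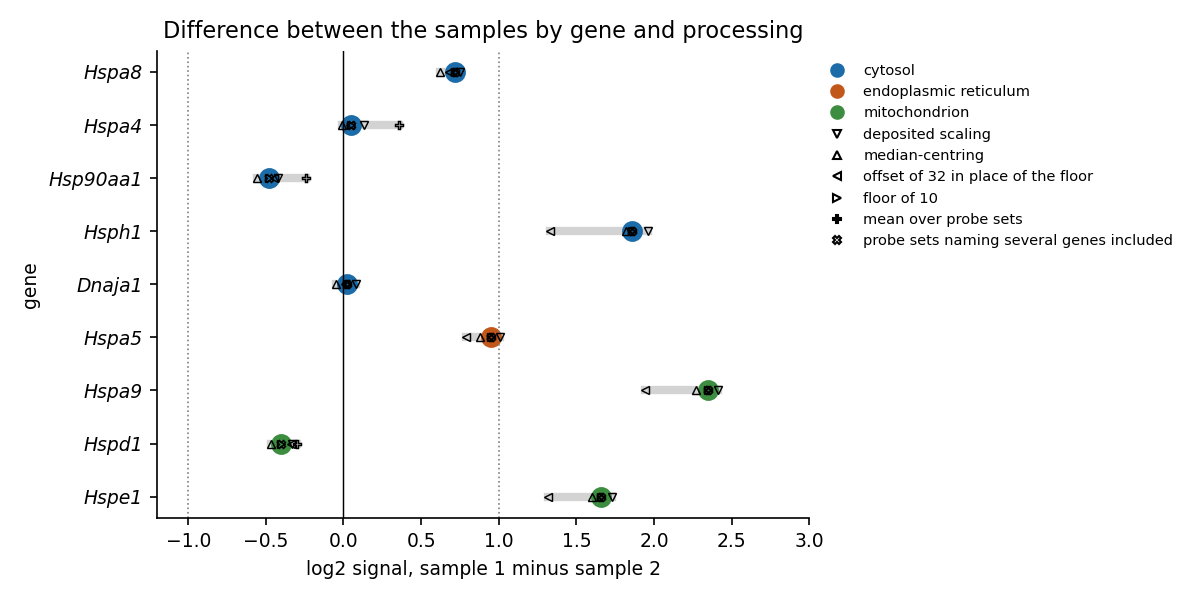
The log2 signal in sample 1 minus that in sample 2 for the 9 measured heat shock genes. Large coloured points are the reported values by compartment, small black symbols the 6 alternative settings, grey bars their range and dotted lines 2-fold. Hspa9, Hsph1 and Hspe1 stay to the right of the 2-fold line under all 6. The lower floor, averaged probe sets and added probe sets naming several genes could not move Hspa9, Hsph1 or Hspe1.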

How the data were processed

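RNA of 2 samples of 1 group was measured on 12488 probe sets each. The deposited values were signal intensity on a linear scale, as their range shows. The software that made them was not given in the sources used here, nor was its scaling. The means were 53.9 in both samples and the medians 15.9 in sample 1 and 14.45 in sample 2, and 66 control probe sets were left out of counts. From these values both arrays were quantile-normalised, floored at 20 and put on the log2 scale (Python 3.11.15, numpy 2.4.6, pandas 2.3.3). The floor held 57.8% of values in each sample. Gene names came from the platform annotation, updated by gene ID, and 10833 probe sets named 1 gene. No test or p-value is possible with 1 group of 2 samples, which also limits the precision. The code was tested on simulated data. The heat shock genes and lists were chosen with earlier results of these data known. Named were all measured heat shock genes and, of each wider list, the 3 with the highest signal and those 2-fold apart with both signals over the floor. As alternatives, the control level was changed, 1 sample was used, every probe set had to pass, arrays were left as deposited or median-centred, the floor was 10 or replaced by an offset of 32, probe sets were averaged, the filter was dropped and probe sets naming several genes were added.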

Additional observations from a re-analysis of the deposited data

How the results depend on the processing

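No paired analysis was possible because the 2 samples form 1 group. All 9 measured genes were above the control level in sample 1 alone and in sample 2 alone, which the count over both samples already requires. Of all 8251 genes, 5309 were above it in sample 1 alone and 5860 in sample 2 alone. Requiring every probe set to pass gave 8, since one Hspa4 probe set did not, and 3705 of all genes. With 6 alternatives the median difference lay between 0.62 and 0.75 for all 9 genes, between 1.32 and 1.73 for the mitochondrial genes and between -0.01 and 0.36 for the cytosolic genes, whose median is the value of Hspa4. The count of genes 2-fold or more apart was 3, and 4 with the deposited scaling. Among these alternatives, the lower floor and the added probe sets naming several genes could not change the value of any of the 9 genes. With 5 alternatives the median of the endoplasmic reticulum list lay between 0.16 and 0.37. That of the nucleotide exchange factor list went from -0.04 to 0.10 with the deposited scaling. No list median of the wider network moved by more than the replicate SD of 0.58. Each of these medians is smaller than that SD, so a change of sign would pass this limit. An offset of 32 made the difference of each of the 9 genes smaller, and 8.24% of all genes were then 2-fold or more apart, against 20.7% with the floor. Weak signals limit what can be seen, because 57.8% of values were at the floor, where signals have no order.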
